A study of Mus musculus with 8 samples.

Results

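The gasdermins are a small family of proteins that punch holes in membranes, and 8 mouse members were followed here through ear skin inflamed by a topical vitamin D analog. The members were selected on the measured difference between treated and untreated skin and taken by name: Gsdma, Gsdma2, Gsdma3, Gsdmc, Gsdmc2, Gsdmc3, Gsdmc4 and Gsdmd, 8 of the 41388 gene identifiers in the count tables. That difference is therefore given for them as a description, with fold changes, standard errors and some intervals of counting error, and no p-value. The calls of members are counted without support being drawn from them. Of the 8, 7 had enough counts to enter the fit, which asked for about 10 counts in at least 4 libraries, and Gsdmc4 did not. Gsdmc2 and Gsdmc3 entered it only through the treated group. The remaining family genes, Gsdme and Pjvk, the proteins that cut gasdermins and the genes next to them were not among the members. They are reported with tests where they had enough counts. The gene lists were also drawn up with earlier results of these data known, so their calls are no independent support.

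RNA of whole ear skin was sequenced from adult wild-type C57Bl/6 mice in 2 groups of 4 libraries. Vehicle mice received ethanol, and MC903 mice received 1 nmol of MC903 (calcipotriol, a vitamin D analog) on the skin every day for 12 days. MC903 is used in mice to produce an itchy skin inflammation that resembles atopic dermatitis. All mice carried the same genotype, and no other agent was named.

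A gasdermin consists of an amino-terminal domain that can form pores and a carboxy-terminal domain that holds it back. Cutting the linker between them releases the pore-forming part, which inserts into the membrane, lets small proteins such as interleukin 1 leave the cell and can burst it. Gsdma genes are known from skin, hair follicle and upper gut epithelium, Gsdmd from macrophages and many other cells. The Gsdmc genes are known from the mouse intestine, where type 2 cytokines raise them during worm infection. Mice have several copies of Gsdma and Gsdmc where humans have 1 of each.

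Library totals ran from 12310466 to 16837221 counts, and 3 counts, taken as the detection floor, equalled 0.178 to 0.244 CPM (counts scaled to a common library size). Markers of basal and suprabasal keratinocytes were present in every library, at summed levels of 5453 to 10698 CPM and 4301 to 6896 CPM. Vehicle replicate 2 stood apart: 6 salivary gland markers took 27.8% of its counts, against at most 0.0501% elsewhere. Its gasdermin values are set beside those of the other libraries throughout, and leaving it out moved the log2 difference of Gsdmc2 from 6.05 to 5.83 and that of each other member in the fit by at most 0.08. In whole skin, a change in the number of cells of a type and a change in RNA per cell cannot be told apart.

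The Gsdmc genes lie side by side on chromosome 15 of mm10 and resemble each other, so the reads that can be told apart had to be established first. In transcripts of GENCODE M21, 51.3% of the 50-base windows of Gsdmc2, 46% of those of Gsdmc3 and 39% of those of Gsdmc4 also occurred in another gene, always another Gsdmc gene. A window of 50 bases is the length of 1 read. For Gsdmc the share was 16.1%, for Gsdma 8.26%, for Gsdma3 5.71% and for Gsdma2 5.1%, in each case with close relatives alone. No window of Gsdmd recurred in another gene. Over the 6 of 11 coding exons whose length is equal in the 4 Gsdmc genes, Gsdmc2 and Gsdmc3 were 97.5% identical and Gsdmc2 and Gsdmc4 95.3%, whereas Gsdmc and Gsdmc2 were 85% identical. The first set of sequences shows a coding window that does not separate Gsdmc2, Gsdmc3 and Gsdmc4 but separates Gsdmc from them. Capitals mark bases that differ from Gsdmc2, and each sequence is written 5′ to 3′ on the minus strand.
Gsdmc, chr15:63803645-63803694: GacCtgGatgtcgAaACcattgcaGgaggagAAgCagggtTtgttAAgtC
Gsdmc2, chr15:63834999-63835048: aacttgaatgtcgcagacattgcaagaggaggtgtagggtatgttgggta
Gsdmc3, chr15:63868352-63868401: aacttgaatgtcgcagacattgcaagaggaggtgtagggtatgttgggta
Gsdmc4, chr15:63901985-63902034: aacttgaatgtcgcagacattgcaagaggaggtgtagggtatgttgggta
Gsdmc differed from Gsdmc2 at 14 of these 50 bases. The second set shows, from the next coding exon, a window that separates all 4 genes.
Gsdmc, chr15:63801900-63801949: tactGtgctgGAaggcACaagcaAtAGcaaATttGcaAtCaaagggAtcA
Gsdmc2, chr15:63833331-63833380: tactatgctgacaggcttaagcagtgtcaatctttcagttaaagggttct
Gsdmc3, chr15:63866680-63866729: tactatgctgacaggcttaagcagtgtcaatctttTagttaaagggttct
Gsdmc4, chr15:63900297-63900346: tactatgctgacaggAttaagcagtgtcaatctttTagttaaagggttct
Here Gsdmc differed at 15 bases, Gsdmc3 at 1 and Gsdmc4 at 2. By the shares of windows above, more of the reads of Gsdmc2, Gsdmc3 and Gsdmc4 than of Gsdmc could not be placed in 1 gene.

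**Figure D1:**
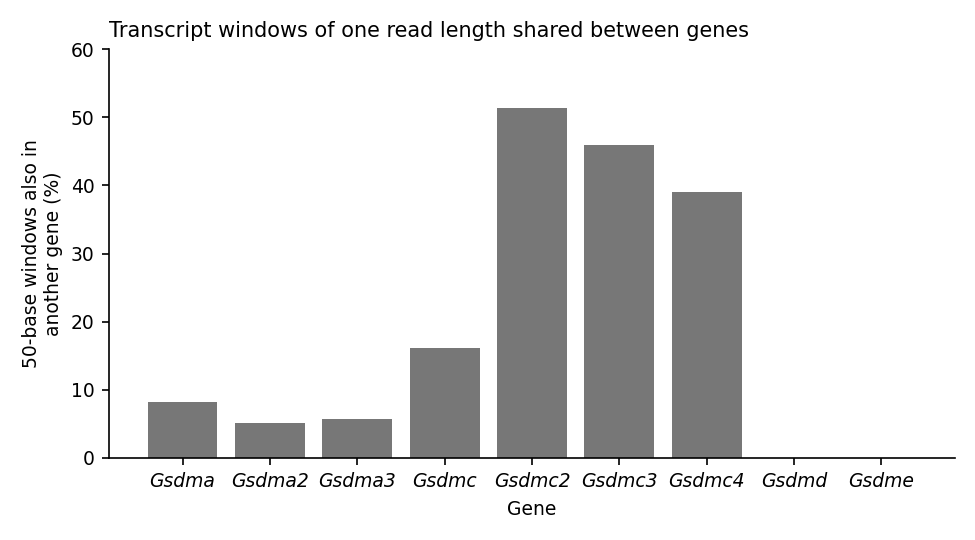
Share of 50-base transcript windows of each gasdermin gene (x axis) that also occur in a transcript of another gene (y axis, percent), from GENCODE M21. Gsdmc2 has the highest bar at 51.3%, and Gsdmd and Gsdme have none.

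Gsdmc, the member of its cluster that sits farthest from its near-identical relatives in sequence, was a minor gasdermin of vehicle skin and had the highest mean level of the family in MC903 skin. The gene, ENSMUSG00000079025, spans chr15:63775968-63808759 on the minus strand. In the vehicle libraries it stood at 10.6, 7.68, 8.23 and 10.3 CPM in replicates 1 to 4. In the MC903 libraries it stood at 447, 490.0, 288 and 590.1 CPM. The groups did not overlap, and the lowest treated library lay far above every vehicle library. The means were 9.21 ± 1.47 and 454 ± 126 CPM (SD, n = 4 per group), a fitted log2 difference of 5.62 ± 0.26 (SE), or 49.2-fold. It ranked 62nd from the top among the 16105 genes in the fit. Leaving out any single library moved the log2 difference only between 5.47 and 5.79.

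Gsdmc2 (ENSMUSG00000056293, chr15:63824346-63845177, minus strand) followed at a much lower level. It had 2, 1, 3 and 7 counts in the vehicle libraries and 234, 217, 152 and 155 in the MC903 libraries. In CPM, this was 0.118, 0.0768, 0.171 and 0.437 against 15.8, 18.1, 10.1 and 12.6. All 4 treated libraries lay above all vehicle libraries, of which replicate 4 was the only one above the detection floor. The ratio of summed counts, 13 in vehicle and 758 in MC903, was 68.3 after scaling to library size. Its 95% exact interval, which covers counting error only, was 39.7 to 129. The fitted log2 difference was 6.05 ± 0.37.

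Gsdmc3 (ENSMUSG00000055827, chr15:63857724-63878558, minus strand) was not detected in any vehicle library. It had 12, 15, 14 and 11 counts in the MC903 libraries, 0.81 to 1.25 CPM. Set against a floor of 3 counts over the vehicle group as a whole, the ratio was 20.3. The exact 95% interval of the ratio began at 15.9. It covers counting error only, not the spread between libraries, and is given as a description. Its fitted log2 difference of 6.84 ± 0.7 rests on the prior count, because the vehicle group is at 0. Gsdmc4 (ENSMUSG00000055748, chr15:63891264-63912297, minus strand) was barely detected, with 1 count over the vehicle libraries and 2, 1, 2 and 2 in the MC903 libraries. The ratio of 8.2 had an exact interval of 1.05 to 369, so its size is not known at this depth.

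How far reads of Gsdmc could have fed its relatives can be read from the counts. Of the windows of Gsdmc, 7.95% also occur in Gsdmc4, yet the Gsdmc4 count was 0.029% of the Gsdmc count over the MC903 libraries. For Gsdmc3 the shares were 6.32% of windows and 0.215% of the count, and for Gsdmc2 12% and 3.14%. With even coverage, counting each shared read in every gene it fits would put each relative at its share of windows or above, and all 3 were lower. Over the vehicle libraries the Gsdmc2 count was 2.21% of the Gsdmc count, near its 2.13% to 3.69% in the MC903 libraries. Whether reads of Gsdmc make up part of the Gsdmc2 count and its fold was not tested. If reads fitting several genes were dropped instead, the levels of Gsdmc2, Gsdmc3 and Gsdmc4 are understated. In that case, per unique window, the Gsdmc2 level in MC903 skin would be 12.5 instead of 6.1 RPKM (CPM per kilobase of annotated exon). Its ratio between groups would be the same. The sum of the 4 genes does not depend on how reads were divided among them, though it would miss dropped reads. It was 10.7, 7.76, 8.4 and 10.8 CPM in vehicle libraries and 464, 509, 299.6 and 604 CPM in MC903 libraries. Its fitted log2 difference was 5.64 ± 0.26, which is nearly that of Gsdmc alone.

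Gsdma (ENSMUSG00000017204, chr11:98664351-98677708, plus strand) is an epidermal gasdermin that can be cut by a protease of skin streptococci. Per kilobase of annotated exon it was the most abundant gasdermin of vehicle skin, but in CPM Gsdme overlapped with it. Gsdma stood at 125, 102, 139 and 116 CPM in the vehicle libraries. In the MC903 libraries it stood at 359.7, 244, 233 and 272 CPM. The groups did not overlap, and MC903 replicate 1 was the highest of all. The means of 120.3 ± 15.3 and 277 ± 57.4 CPM gave a log2 difference of 1.2 ± 0.17, or 2.3-fold. The summed level of 6 suprabasal keratinocyte markers overlapped between the groups, at 5042 to 5632 CPM in vehicle and 4301 to 6896 CPM in MC903 libraries, with 2 markers higher and 1 lower. The summed level of 5 basal markers did not overlap, at 5453 to 7908 and 8949.8 to 10698 CPM, with 1 higher (Krt14) and 1 lower (Krt15). Of all genes, 21.3% were higher and 20.2% lower. The part of keratinocyte number in the Gsdma difference was not tested.

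Its neighbours Gsdma2 and Gsdma3 were low in every library and did not follow Gsdma. Gsdma3 is known for mutations that cause hair loss in mice. Gsdma2 (ENSMUSG00000017211, chr11:98646759-98657964, plus strand) stood at 1.53, 1.77, 2.11 and 2.75 CPM in vehicle and 1.15, 0.417, 0.729 and 1.87 CPM in MC903 libraries. The groups overlapped through MC903 replicate 4, and the log2 difference was -0.97 ± 0.38. Without MC903 replicate 4 the log2 difference was -1.38. Gsdma3 (ENSMUSG00000064224, chr11:98626360-98638226, plus strand) stood at 1.06, 1.84, 1.94 and 2.25 CPM in vehicle and 0.877, 1.83, 1.46 and 5.11 CPM in MC903 libraries. The groups overlapped, MC903 replicate 4 was the highest of the 8, and the log2 difference was 0.37 ± 0.47. Without that library the value turned to -0.36.

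Gsdma2 had the same order between libraries as the summed level of sebaceous gland markers within each group, and Gsdma3 within the vehicle group. The summed level of 8 such markers was 5585, 7299.9, 8709 and 11196 CPM in vehicle replicates 1 to 4, from lowest to highest, as for Gsdma2 and Gsdma3. It was 3710.1, 3171, 3398 and 6567 CPM in the MC903 libraries, where Gsdma2 again had the same order. Gsdma3 did not have that order there, though its highest library was the same. Gsdma2 per 1000 CPM of sebaceous markers was 0.242 to 0.274 CPM in vehicle and 0.131 to 0.309 CPM in MC903 libraries, with overlapping groups. Gsdma3 on the same scale was 0.19, 0.253, 0.223 and 0.201 CPM in vehicle and 0.236, 0.578, 0.429 and 0.778 CPM in MC903 libraries, so that 3 of 4 treated libraries lay above every vehicle library. Of the 8 markers, 4 were lower in MC903 skin (Scd1, Scd3, Mgst1 and Far2) and none higher, where 20.2% of all genes were lower and 21.3% higher. Among single markers, Far2 kept the Gsdma2 order in both groups. Scd1, the largest part of the sum, and Soat1 kept it in vehicle libraries only. Scd3, Awat1, Awat2, Elovl3 and Mgst1 did not keep it in vehicle libraries, though all of these except Mgst1 did in MC903 libraries. The part of sebaceous tissue in the Gsdma2 and Gsdma3 values was not tested. The sum of hair follicle markers did not share this order, at 39.8, 61.8, 41.1 and 140.0 CPM in vehicle and 40.4, 45.3, 71.3 and 28.6 CPM in MC903 libraries. Of the 8 hair markers tested, 6 were lower and 1, Hoxc13, was higher, where 20.2% of all genes were lower and 21.3% higher. Hoxc13 alone stood at 4.15 to 8.72 CPM in vehicle and 18.6 to 44.7 CPM in MC903 libraries, so the sum hides the lower markers. The part of hair follicles in the Gsdma2 and Gsdma3 values was not tested.

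**Figure D2:**
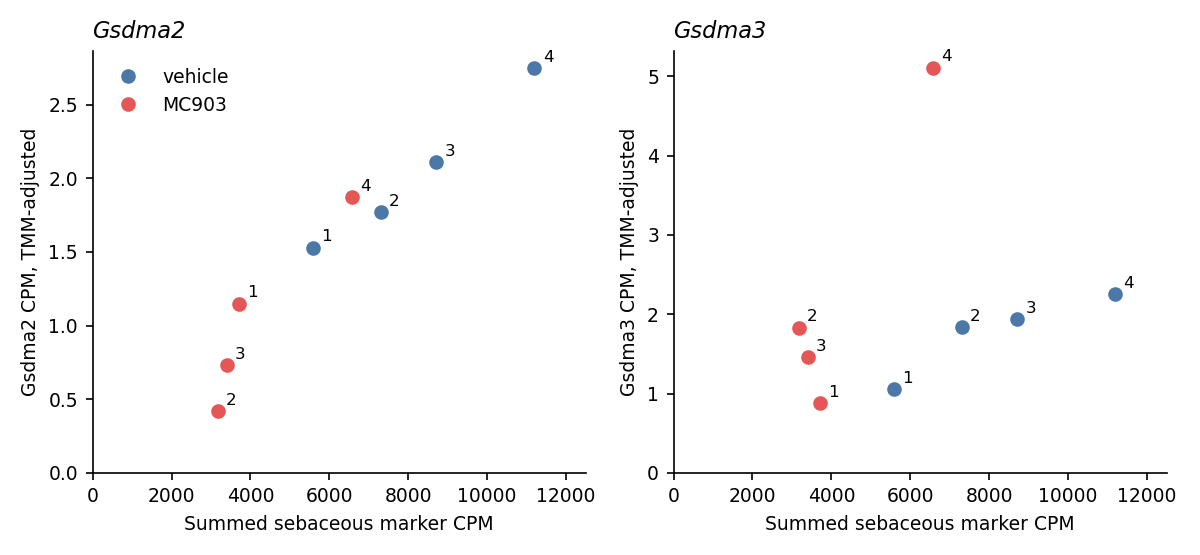
Level of Gsdma2 (left) and Gsdma3 (right) in TMM-adjusted CPM against the summed CPM of 8 sebaceous gland markers. Each point is 1 library with its replicate number; MC903 replicate 4 has 6567 CPM of markers, the most in its group, and the highest Gsdma2 and Gsdma3 values of that group.

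Gsdmd (ENSMUSG00000022575, chr15:75862339-75867404, plus strand), the target of inflammatory caspases, differed by less. It stood at 10.5, 12.7, 12.3 and 9.93 CPM in vehicle and 25.6, 18.8, 20.5 and 17.6 CPM in MC903 libraries. The groups did not overlap, and the log2 difference was 0.86 ± 0.15, or 1.82-fold. Macrophage markers moved in the same direction: 7 of 7 were higher, where 21.3% of all genes were higher. Their summed level was 769 to 926 CPM in vehicle and 1741 to 2621 CPM in MC903 libraries. MC903 replicate 1 was highest and replicate 4 lowest for both. The part of macrophages in the Gsdmd difference was not tested.

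**Figure D3:**
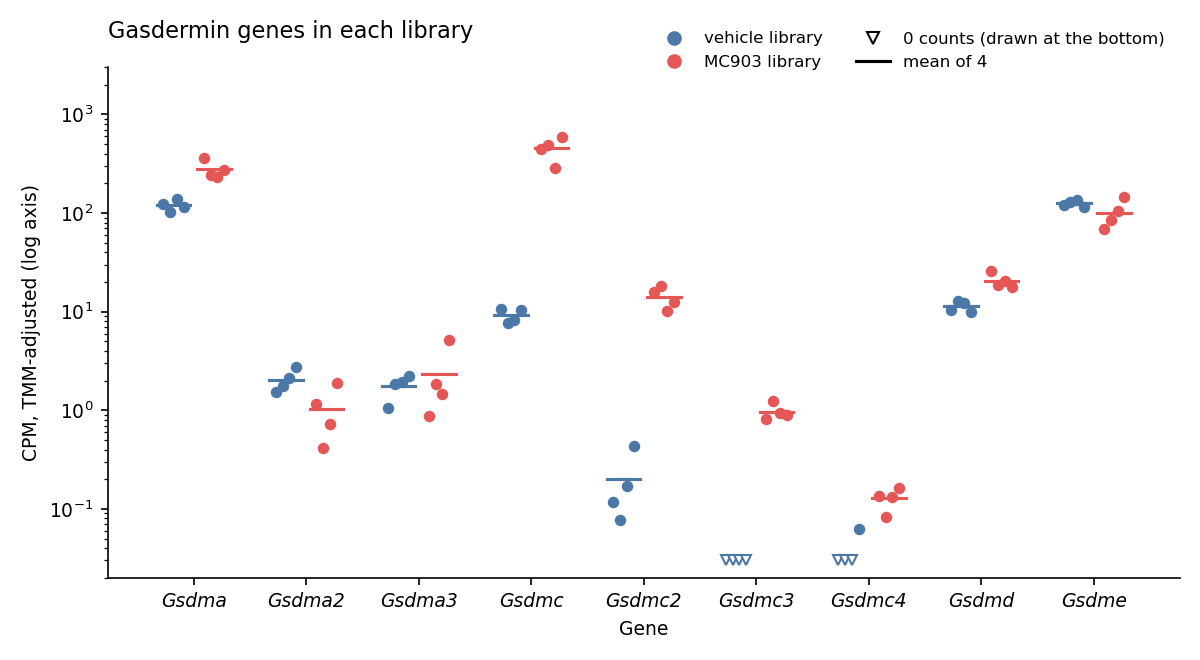
TMM-adjusted CPM on a log axis of the 8 members and Gsdme in each vehicle and MC903 library, with bars at the mean of 4 where every library had counts. Open triangles stand for 0 counts; Gsdmc, Gsdmc2, Gsdmc3, Gsdma and Gsdmd show no overlap between groups, and Gsdma2, Gsdma3 and Gsdme do.

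Of the 7 members in the fit, 5 were called higher (Gsdma, Gsdmc, Gsdmc2, Gsdmc3 and Gsdmd) and none lower, where 41.5% of all 16105 genes were called, 21.3% higher and 20.2% lower. The same 5 had groups that did not overlap, against 38.7% of all genes, 19.8% higher and 18.9% lower. The median log2 difference of the 7 was 1.20, also with Gsdmc3 at its ratio against the floor, and that of all genes was -0.03. Since the members were proposed with this contrast in view, nothing is read from these counts.

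Compared per kilobase of annotated exon, the order of the family changed between the groups. The length counts all annotated exons of a gene, 7375 bases for Gsdme and 2726 for Gsdma, and the order between genes depends on it. In CPM, the vehicle means were 125 for Gsdme and 120.3 for Gsdma. In vehicle skin Gsdma led at 44.1 ± 5.6 RPKM, followed by Gsdme at 17 ± 1.25, Gsdmd at 6.4 ± 0.756 and Gsdmc at 3.83 ± 0.609 (SD, n = 4). These 4 did not overlap with each other. Gsdma3 at 1.1 ± 0.313 and Gsdma2 at 0.662 ± 0.172 RPKM came next and overlapped, and the other Gsdmc genes were below 0.2 RPKM in every library. In MC903 skin Gsdmc led at 189 ± 52.2 RPKM and lay above Gsdma, at 102 ± 21.1 RPKM, within each of the 4 libraries, although their ranges overlapped across libraries. Gsdme at 13.7 ± 4.51 and Gsdmd at 11.6 ± 1.97 RPKM overlapped. Gsdmc2 at 6.1 ± 1.52, Gsdma3 at 1.44 ± 1.18, Gsdmc3 at 0.417 ± 0.0829, Gsdma2 at 0.337 ± 0.203 and Gsdmc4 at 0.0615 ± 0.0157 RPKM followed.

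As a share of the summed RPKM of all 10 gasdermin genes, Gsdmc made up 5.25% ± 0.933 in vehicle and 57.6% ± 6.7 in MC903 skin (SD, n = 4). Gsdma went from 60.1% ± 3.02 to 31.8% ± 5.95 although its own level was higher, and Gsdme from 23.2% ± 1.97 to 4.33% ± 1.49. The summed level itself was 73.3 ± 6.13 RPKM in vehicle and 324 ± 62.8 RPKM in MC903 skin. Shares of 1 gene depend on the levels of the others and on the exon lengths used, so a lower share is no lower level.

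**Figure D4:**
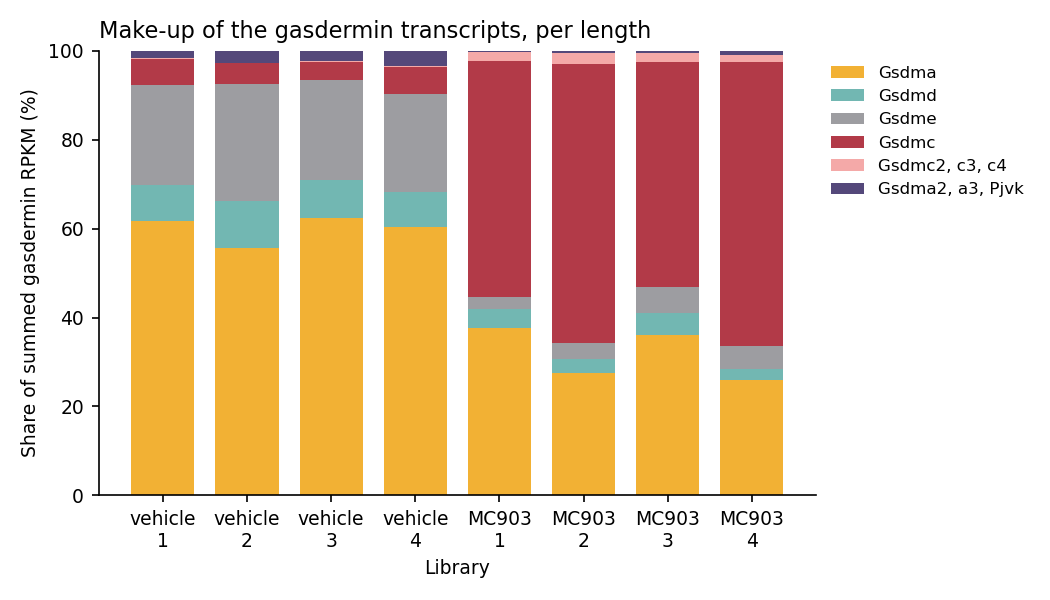
Share of each gasdermin gene in the summed gasdermin RPKM (y axis, percent) in the 8 libraries (x axis). Gsdma takes 55.7% to 62.4% of each vehicle bar, and Gsdmc takes 50.5% to 63.8% of each MC903 bar.

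The patterns most like those of single members were sought among 12876 genes by the Euclidean distance of log2 CPM, relative to the gene's own vehicle mean, over the 8 libraries. Nearest to Gsdmc were Lce3e (distance 0.87), Rptn (1.09) and Lce3f (1.22), which encode proteins of the cornified envelope and outer epidermis. Rptn went from 32.7 to 1949 CPM. Nearest to Gsdmc2 were Sprr2j-ps (1.07), Il19 (1.22) and Uox (1.38), nearest to Gsdma were Myd88 (0.29), Lypd3 (0.31) and Lat2 (0.35), and nearest to Gsdmd were Stn1 (0.23), Capg (0.24) and Gusb (0.26). Gsdma2 lay nearest to Hsd3b6 (0.63), Nrg4 (0.66) and Pparg (0.67), and Gsdma3 nearest to Krt79 (0.84) and Idi1 (0.88). Nearest to Gsdmc3 were Slc34a2 (0.51), Il18rap (0.55) and Cxcr2 (0.67), but its profile rests on the prior count in vehicle libraries. The distance includes the size of the group difference, so genes with like differences lie near each other.

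Of the family genes outside the member list, only Gsdme was tested, and it did not pass in the main fit. Gsdme, which is opened by granzyme B, stood at 122, 130.2, 135 and 114 CPM in vehicle and 69.4, 84.8, 104 and 146 CPM in MC903 libraries. The MC903 libraries spread to both sides of the vehicle range, from replicate 1 as the lowest to replicate 4 as the highest of all. The log2 fold change of -0.31 ± 0.2 did not pass (edgeR quasi-likelihood test, adjusted p = 0.234). Without MC903 replicate 4 it was -0.54 and passed (adjusted p = 0.0174). Pjvk, a family gene known from the inner ear, had 8 counts over the vehicle and 6 over the MC903 libraries and was not tested.

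RNAs of proteins that can open gasdermins were tested with the same edgeR fit. Of 8 proteases considered 7 were tested, 5 were higher and none lower (median log2 fold change 1.16), where 21.3% of all genes were higher and 20.2% lower. The strongest changes were in granzymes of cytotoxic lymphocytes: Gzmb rose from 0.954 ± 0.231 to 21.4 ± 5.94 CPM (SD, n = 4 per group; log2 fold change 4.47 ± 0.25, adjusted p = 4.95e-07) and Gzma by 4.7 ± 0.65 (adjusted p = 0.000195). Gzma had 10 counts in all over the vehicle libraries. Casp4, the mouse sensor of cytosolic endotoxin that cuts Gsdmd, rose from 11.3 ± 1.66 to 33.9 ± 2.55 CPM (1.59 ± 0.14, adjusted p = 8.6e-06). Casp8, known to cut human GSDMC, rose by 0.78 ± 0.13 (adjusted p = 0.000716), and Casp6, an effector caspase, by 1.16 ± 0.15 (adjusted p = 0.000134).

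Casp1, the classical inflammasome protease, did not pass. It stood at 13.5, 23.8, 23.9 and 16.1 CPM in vehicle and 21.3, 32.2, 24.4 and 35.5 CPM in MC903 libraries. The groups overlapped (log2 fold change 0.55 ± 0.22, adjusted p = 0.0638), and it passed in 4 of 16 alternatives, including the fits without vehicle replicate 2 (0.0471) and without MC903 replicate 1 (0.0303). Ctsg, cathepsin G (0.35 ± 0.22, edgeR adjusted p = 0.225), did not pass either. Elane, neutrophil elastase, had 12 counts over the vehicle and 6 over the MC903 libraries and was not tested. T cell markers were higher in 4 of 6 cases, where 21.3% of all genes were higher. Cd3e (log2 fold change -0.30) and Cd3g (0.12) were not called. The summed level of the 6 was 50.6 to 65.9 CPM in vehicle and 61.3 to 87.1 CPM in MC903 libraries. The part of lymphocytes in the granzyme values was not tested.

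Of 17 inflammasome sensors and adaptors matched, 15 were tested, 11 were higher and 1 was lower in the edgeR fit (median log2 fold change 0.91), beside 21.3% and 20.2% of all genes. Gbp2, an interferon-induced protein that exposes bacteria to inflammasome sensors, rose by 3.2 ± 0.35 (adjusted p = 3.74e-05). Naip1, a receptor for bacterial secretion needles, rose by 5.95 ± 0.68 (adjusted p = 5.1e-05) from 2 counts over the vehicle libraries to 135 over the MC903 libraries, so its fold depends on the prior count. Naip2, a related receptor, rose by 1.31 ± 0.21 (adjusted p = 0.000548). How reads of the closely related Naip genes were divided was not stated, and their single levels are uncertain. Nlrp3, the sensor of cell damage, stood at 0.53, 1.38, 0.4 and 0.999 CPM in vehicle and 9.99, 9.83, 6.43 and 2.92 CPM in MC903 libraries. It rose by 3.17 ± 0.45 (adjusted p = 0.000238), with MC903 replicate 4 as the lowest of the treated libraries.

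The adaptor Pycard rose from 162 ± 8.72 to 261 ± 41 CPM (0.69 ± 0.15, edgeR adjusted p = 0.00321). The one gene that fell was Txnip, a thioredoxin-binding protein, by 0.97 on the log2 scale (adjusted p = 0.000597); Pycard and Txnip were named after their values were seen. Card6 had the largest p (0.1 ± 0.18, adjusted p = 0.675). Among the higher calls, Nlrp1b was weak and was lost in 12 of 16 alternatives, with adjusted p from 0.00857 to 0.133.

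All 4 cytokines that can leave through gasdermin pores rose, where 21.3% of all genes were higher. Il1b stood at 2.95, 7.38, 1.31 and 3.94 CPM in vehicle and 76.6, 73.8, 56.9 and 32.8 CPM in MC903 libraries. The groups did not overlap (log2 fold change 3.98 ± 0.43, edgeR adjusted p = 3.75e-05), and MC903 replicate 4 was the lowest treated library, as for Nlrp3. The sum of neutrophil markers was also lowest there among MC903 libraries, at 399 CPM against 1036 to 1411 CPM in the others and 35.5 to 117 CPM in vehicle. S100a8 and S100a9 made up most of the MC903 sums, with 185 and 157 CPM in replicate 4. Cxcr2 differed less, at 46.8 CPM in replicate 4 against 55.5 to 60.1 CPM in the other MC903 libraries. Mmp9 was not called between the groups (edgeR adjusted p = 0.725). Among the 6 neutrophil markers Ly6g was at or near 0 in all libraries, and the part of neutrophils in Il1b and Nlrp3 was not tested. Il1a (2 ± 0.14, adjusted p = 2.38e-06) and Il33 (1.3 ± 0.21, adjusted p = 0.000591), both alarm signals of damaged epithelium, rose as well. Il18 rose least, from 53.3 ± 2.51 to 72 ± 7.93 CPM (0.43 ± 0.12, adjusted p = 0.0111), and was not called with library sizes alone (adjusted p = 0.195).

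Of 12 tested genes of membrane rupture and repair, 3 were higher and none lower (median log2 fold change 0.29; edgeR), a share near the 21.3% of all genes that were higher. They were Chmp4c, a subunit of the repair complex ESCRT-III (1.06 ± 0.15, adjusted p = 0.000204), its calcium sensor Pdcd6 (0.66 ± 0.13, adjusted p = 0.00233) and Ninj1, whose protein ruptures the membrane of dying cells (0.67 ± 0.2, adjusted p = 0.0201). Ninj1 was not called without vehicle replicate 2 (0.0591) or 3 (0.0608) or with library sizes alone (0.0644). The count of higher genes was 6 without MC903 replicate 1. Vps4a, an ATPase that drives membrane repair, had the largest p (0.00 ± 0.11, adjusted p = 0.977).

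Of 13 regulators of gasdermins and inflammatory caspases, 7 were higher and none lower (median log2 fold change 0.39; edgeR), where 21.3% of all genes were higher. With library sizes alone 3 were higher. Irf8 rose by 1.99 ± 0.17 (adjusted p = 7.02e-06) and Irf1 by 1.74 ± 0.16 (adjusted p = 1.14e-05), both interferon-related transcription factors. Serpinb1a, an inhibitor of neutrophil proteases and inflammatory caspases, rose from 112 ± 11.9 to 252 ± 25.5 CPM (1.17 ± 0.13, adjusted p = 5.68e-05). Zdhhc5, an enzyme that attaches palmitate to proteins, rose by 0.57 ± 0.12 (adjusted p = 0.00309; 0.0712 with library sizes alone). Serpinb9, the granzyme B inhibitor, had the largest p (0.07 ± 0.18, adjusted p = 0.761).

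Interleukin 4 and 13 signalling, which raises Gsdmc genes in the gut, had 5 of 8 tested genes higher and none lower (median log2 fold change 0.66; edgeR), against 21.3% of all genes higher. Il4ra rose by 2.35 ± 0.14 (adjusted p = 6.61e-07), Il4 by 2.82 ± 0.24 (adjusted p = 7.34e-06), the decoy receptor Il13ra2 by 2.22 ± 0.25 (adjusted p = 5.1e-05) and Il13ra1 by 0.87 ± 0.16 (adjusted p = 0.00124). Jak1 had the largest p (0.19 ± 0.15, adjusted p = 0.324). Stat6, the transcription factor of the pathway, named after its value was seen, stood at 90.2 ± 7.06 and 114 ± 9.68 CPM (0.34 ± 0.12, adjusted p = 0.0364). That call was lost in 10 of 16 alternatives, with adjusted p from 0.0131 to 0.309. The palindromic STAT motif of the Stat6 type, searched on both strands, was not found in the 250 bases before the start of Gsdmc3 or Gsdma3, the 2 of 8 members matched in the RefSeq promoter table of GRCm38.p6. It occurred in 5.85% of 32851 promoters. TATAAA (12.4% of promoters) and TGANTCA (6.75%) were not found there either. Only these forms were counted, and a related string, TATATAAG, lies in the 120 bases before the start of Gsdmc3.

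**Figure D5:**
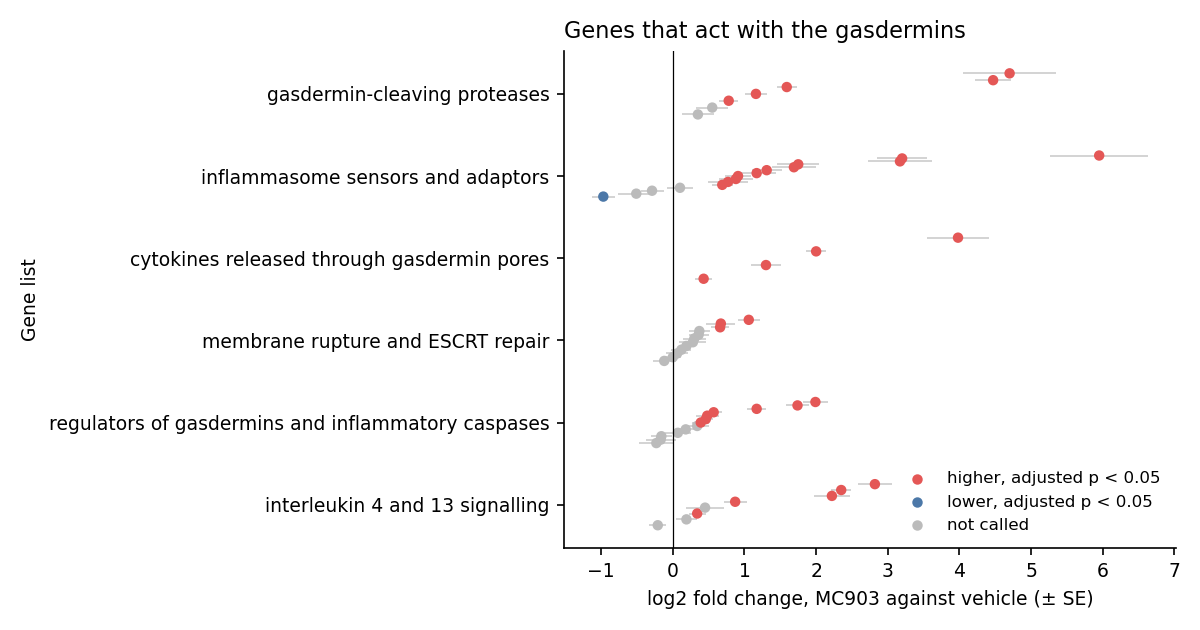
Log2 fold changes of MC903 against vehicle (x axis, error bars SE) for the tested genes considered from 6 lists (y axis). Red points were called higher, blue lower and grey not called; Txnip is the only blue point, and all 4 cytokines are red.

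The protein-coding genes nearest to the gasdermins were called higher at a share near that of all genes. Of the 3 nearest on each side of the Gsdma cluster, the Gsdmc cluster and Gsdmd, 12 of 18 were tested. In the edgeR fit 3 were higher and none lower, where 21.3% of all genes were higher and 20.2% lower. Not all are close: Myc, the nearest below the Gsdmc cluster, ends at chr15:61990374, and Gsdmc begins at chr15:63775968. Beside the Gsdmc cluster, Fam49b rose from 21.3 ± 2.12 to 69.6 ± 23.5 CPM (1.71 ± 0.22, adjusted p = 0.000136). Asap1 (0.02 ± 0.12, adjusted p = 0.921), Myc (0.13 ± 0.14, adjusted p = 0.479) and Fam84b (0.3 ± 0.25, adjusted p = 0.349) did not pass, and A1bg and Adcy8 had too few counts. Fam84b passed without MC903 replicate 1 (adjusted p = 0.0238).

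Beside the Gsdma cluster, Psmd3, a proteasome subunit, rose by 0.61 ± 0.13 (edgeR adjusted p = 0.00367). Ormdl3 (-0.19 ± 0.22), Med24 (-0.1 ± 0.12) and Gm12355 (0.12 ± 0.35) did not pass, and Lrrc3c had no counts. Csf3, the granulocyte growth factor next to Psmd3, failed the count filter with 0.568 CPM in MC903 replicate 4, but had 10 counts over the vehicle and 479 over the MC903 libraries. Beside Gsdmd, the elongation factor gene Eef1d rose by 0.7 ± 0.14 (adjusted p = 0.00228). Naprt (-0.29 ± 0.15), Mroh6 (0.36 ± 0.26) and Zc3h3 (-0.35 ± 0.35) did not pass, and Rhpn1 and Mafa had too few counts.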

How the data were processed

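Single 50-base reads of rRNA-depleted total RNA were counted by the authors. The submitters' processing notes name mm10 as the build, with STAR 2.0.4b for one tool and featureCounts 1.4.5, of Subread, for another. The annotation release, strand setting and treatment of reads fitting several genes are not given in the sources used here, and the library protocol has no step that marks strand. Each deposited table holds whole-number counts per Ensembl gene, CPM and RPKM. The deposited CPM and RPKM values equalled the counts scaled by library total, and per kilobase, to within 2.33e-10 and 1.6e-10, and only the counts were used.

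Symbols came from a table of Ensembl identifiers (40254 of 41388 named). Gbp5 and Card16 were not matched. Counts were filtered with filterByExpr, TMM-normalized and compared by the quasi-likelihood test of edgeR 4.0.16, run under R 4.3.3, with group as the sole term. Benjamini-Hochberg adjustment ran over all 16105 genes, with a threshold of 0.05. CPM and RPKM in the text are TMM-adjusted. SE is the log2 fold change divided by the root of F. The method was tested on simulated data. Ratio intervals are exact at 95% (scipy 1.17.1) and cover counting error only. P-values measure the spread between 4 mice per group.

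The members and lists were chosen with earlier results of these data known. Named genes are all members, the other gasdermins, proteases, cytokines and neighbours, and in the remaining lists the 4 calls with the smallest p and the gene with the largest p. Other normalizations, filters, DESeq2 1.42.0, limma-voom 3.58.1, a replicate block and leaving out each library were tried. Windows came from GENCODE M21 transcripts (GRCm38, the build of mm10), not the whole genome. Protein sequences were not used here. Some genes of the lists and of the likeness ranking are not reported here, and counts and medians of those lists leave them out; they stayed in the fit over all genes.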

Additional observations from a re-analysis of the deposited data

How the results depend on the processing

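Of 79 single fold changes, 59 kept the same call under every alternative run, and none that was called changed its sign. The 79 include the 7 members in the fit, which were chosen on this contrast. The members called higher numbered 5 under every alternative except the stricter filter, which removed Gsdmc3 and left 4; the choice of members on this contrast fixes that, so it is no sign of stability. The number of members called lower, 0 in the main fit, was 1 (Gsdma2) with library sizes alone, upper quartile factors, DESeq2, limma-voom and the replicate block, and 0 to 1 when single libraries were left out (1 without MC903 replicate 4). Regulators called higher numbered 7, and 3 with library sizes alone. Leaving out single libraries gave 0 to 1 other gasdermin lower, 1 to 2 inflammasome genes lower, 2 to 6 rupture and repair genes higher and 0 to 1 regulator lower. The fit called 6682 genes in all. A fit with library sizes alone called 5389 and moved the median log2 difference of all genes from -0.03 to -0.11. The replicate block gave 5705 calls, and no list count moved by over 1.5 times with it except the members called lower. Same-numbered libraries had residual correlations of 0.0568, -0.139, -0.118 and -0.204. No library correlated best with the library of its own number, so the samples share only a number. Levels per unique window replaced 3.83 and 189 RPKM of Gsdmc by 4.56 and 225. Depth limits Gsdmc3, Gsdmc4 and Pjvk.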

Other observations

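Among and beside the Gsdmc genes the annotation places 4 transcribed pseudogenes on the opposite strand. Gsdmcl1, Gsdmcl2 and Gsdmcl-ps had at most 1 count in any library. The genes nearest to them, Gsdmc2, Gsdmc3 and Gsdmc4, reached 234, 15 and 2 counts in single MC903 libraries. The pseudogene 1700065I16Rik, between Gsdmc and Gsdmc2 at chr15:63817188-63821393, had 2 counts over the vehicle libraries, both in replicate 4, and 12, 4, 3 and 3 counts in the MC903 libraries. Since strand was not stated, its reads and those of transcripts running the other way cannot be told apart.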
